A study of Mus musculus with 143 samples.

Results

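The 9 genes described here are Hras, Nras and Braf, which encode upstream members of the RAS and MAPK cascade, the transcription factor genes Myc and Mycn, and Ccnd1, Dusp6, Spry4 and Etv4, which are commonly read as outputs of that cascade. They were chosen by symbol. All 9 were found among the 54232 gene identifiers of the table, of which 54079 carried a symbol, and their levels were followed through 143 subcutaneous tumours of 11 transplantable mouse tumour lines. RAS proteins are small GTPases that, when bound to GTP, recruit RAF kinases, which activate MEK and then ERK. ERK acts on transcription factors and raises transcripts of immediate and delayed targets, among them genes whose products dampen the cascade again. In tumours the cascade is often driven by mutation of a RAS or RAF gene, which changes the protein and need not change the amount of its own RNA. RNA levels were measured here, and sequence changes were not analysed here.

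Each line was sampled in 3 arms. There were 5 tumours from mice given muDX400, an antibody against mouse PD-1, 5 from mice given a mouse IgG1 isotype control antibody, and 3 baseline tumours from mice given no antibody, whose day of excision is not stated in the labels. Antibody was given on days 11 and 15, and tumours of the muDX400 and isotype arms were excised on day 19, 8 days after the first dose. The labels class CM3, MBT2 and MC38 as High responders, CT26, EMT6, MB49 and RENCA as Partial, and 4T1, B16F10, LL2 and TC1 as Resistant. All tumours were grafts of a cell line in the flank of a mouse. No strain, sex, genotype or age of the hosts was used here. Mice were inoculated once each according to the protocols, and libraries were therefore treated as coming from different animals. B16F10 is a melanoma line, LL2 a lung carcinoma line, MC38 and CT26 colon carcinoma lines, EMT6 and 4T1 mammary carcinoma lines, RENCA a renal carcinoma line, and MB49 and MBT2 bladder carcinoma lines. TC1 is a lung epithelial line made by introducing papillomavirus oncogenes and an activated HRAS.

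Values are FPKM, which scale fragments by transcript length and by library size, as deposited. The commonest low step of the values put depth at 11.9 to 26.3 M fragments in 134 libraries, and at 33.7 to 54.9 M in the other 9, which were baseline tumours of TC1, B16F10 and RENCA. In all 143 libraries the closest library by correlation came from the same model. The 5 melanocyte markers summed to 8117 to 10369 FPKM in B16F10 isotype tumours and to 5357 to 7325 FPKM in those of CM3, and to at most 4.59 FPKM in those of the other 9 models. The 5 epithelial markers summed to 1301 to 1666 FPKM in 4T1 and to 2.25 to 24.1 FPKM in MC38, a line of epithelial origin. CM3 isotype replicates 2 and 3 stood apart with FPKM totals of 784467 and 885333, against 507254 to 554588 in the other CM3 libraries. The median over all 143 libraries was 514607. Tumours are mixtures of tumour cells and host cells, and in such bulk samples fewer cells of a type and less RNA per cell cannot be told apart.

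The RefSeq promoter table of GRCm38.p6 held 5 of the 9 genes, Hras, Nras, Braf, Dusp6 and Mycn. The 250 bases before the annotated start were searched on both strands for 5 motifs. They were ETS (CCGGAAG), E-box (CACGTG), E2F (TTTCGCGC), CRE (TGACGTCA) and AP-1 (TGANTCA). The E-box is the motif of MYC, and ETS and AP-1 motifs are those of factors that ERK acts on. None of the 5 windows held the ETS or AP-1 letters, which 6.91% and 6.75% of all 32851 promoters held. Nras held an E-box 15 bases before its start, a motif of 6.02% of promoters. Braf held 2 CRE motifs, 99 and 81 bases before its start, where 1.55% of promoters held any. Mycn held an E2F motif 179 bases before its RefSeq start, and 0.256% of promoters held any. Hras and Dusp6 held none of the 5. The windows of Hras, at chr7:141194005-141194254, and Braf, at chr6:39725464-39725713, are shown because these genes differed in opposite directions between isotype and baseline tumours. That of Mycn, at chr12:12941837-12942086, is shown because its RNA was highest in a single model. Starts are those of RefSeq, and part of the Mycn window lies inside the gene as GENCODE places it, up to 12941914. All 3 lie on the minus strand and are written 5′ to 3′ in the direction of transcription, with matched motifs in capitals. A match or its absence describes these letters only.
Hras: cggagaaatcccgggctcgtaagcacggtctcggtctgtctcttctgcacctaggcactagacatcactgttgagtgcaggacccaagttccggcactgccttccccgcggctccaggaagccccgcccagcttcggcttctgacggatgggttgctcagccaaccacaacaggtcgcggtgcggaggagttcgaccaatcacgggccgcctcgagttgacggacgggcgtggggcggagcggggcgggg
Braf: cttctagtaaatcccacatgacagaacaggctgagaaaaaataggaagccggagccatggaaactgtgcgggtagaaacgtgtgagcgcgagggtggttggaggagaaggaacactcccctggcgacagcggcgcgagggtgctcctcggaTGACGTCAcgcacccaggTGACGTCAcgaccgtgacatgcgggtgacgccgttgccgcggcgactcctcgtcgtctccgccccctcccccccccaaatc
Mycn: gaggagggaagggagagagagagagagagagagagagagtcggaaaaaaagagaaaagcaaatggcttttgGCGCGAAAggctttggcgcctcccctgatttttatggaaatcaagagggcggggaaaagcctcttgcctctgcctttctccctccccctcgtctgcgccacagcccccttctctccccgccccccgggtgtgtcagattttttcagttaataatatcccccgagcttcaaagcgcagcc

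The first question was which lines carry unusual levels of these genes when no active antibody is present. Myc was far higher in LL2 than in the other 10 models and lowest in B16F10, Ccnd1 was highest in MC38 and lowest in CM3, Spry4 was highest in CT26, and Etv4 was lowest in MBT2, at under 1 FPKM on average. A level was called outlying where limma on log2(FPKM + 1) gave an adjusted p under 0.05, the model differed from the mean of the other 10 by at least 1 on the log2 scale, and its 5 isotype libraries lay wholly above or below all 50 isotype libraries of the others. By this rule 6 of the 88 tested pairs of a gene and a model were outlying, or 6.82%, where 2.61% of all pairs over all genes were. Mycn was below the filter on low values, 1 FPKM or more in 5 or more libraries, and was not tested here.

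**Figure D1:**
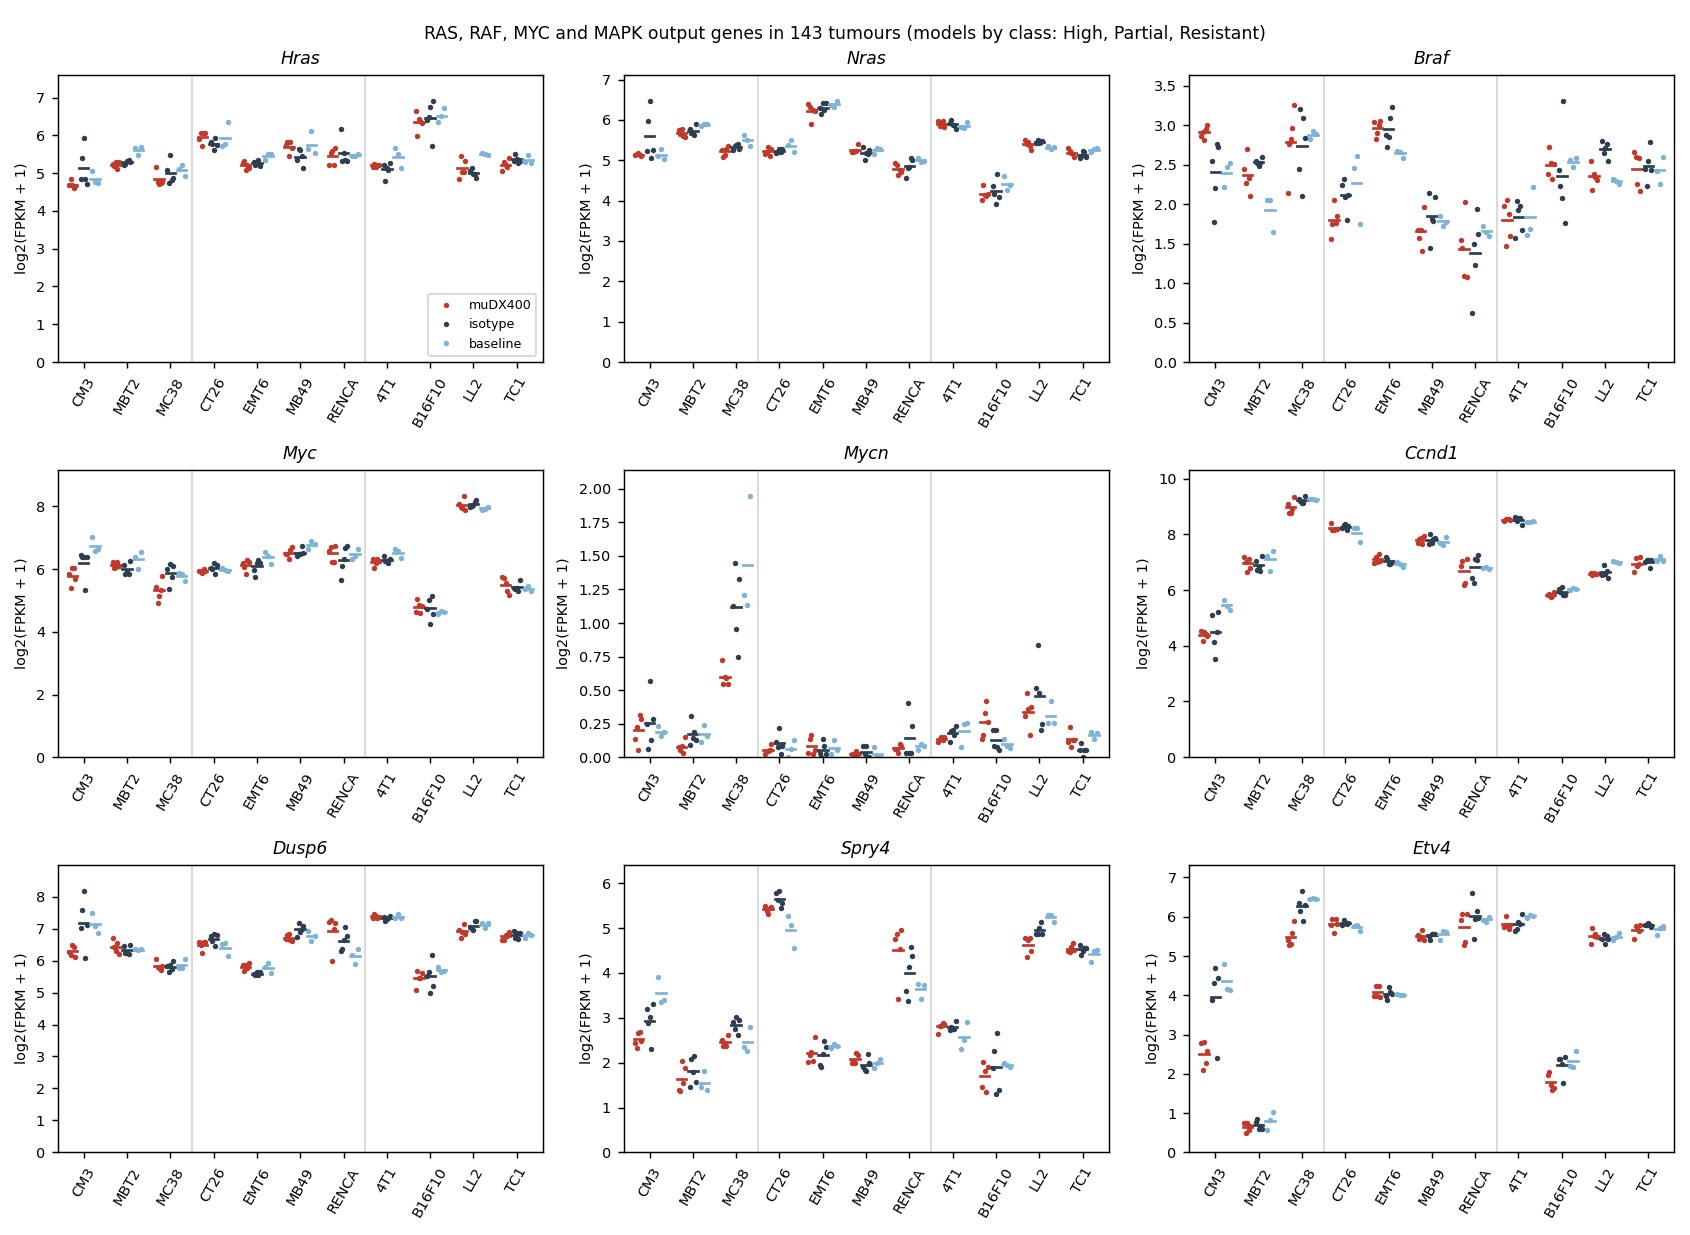
Levels of the 9 genes as log2(FPKM + 1) in each of 143 tumours, by model (CM3, MBT2 and MC38 High; CT26, EMT6, MB49 and RENCA Partial; 4T1, B16F10, LL2 and TC1 Resistant) and arm, with a line at each group mean. Myc stands out in LL2 and Etv4 in MBT2 in all 3 arms, while the vertical scale starts at 0 and differs between panels.

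Hras (ENSMUSG00000025499, GRCm38 chr7:141189105-141194005, minus strand) and Nras (ENSMUSG00000027852, chr3:103058285-103067914, plus strand) encode RAS GTPases. Hras was highest in B16F10, with 90.3 ± 25.9 FPKM in isotype tumours (SD, n = 5), and differed from CT26, next in order at 54.1 ± 4.47 FPKM (adjusted p of limma = 0.000403). From CT26 down to MC38, with 31.5 ± 7.22 FPKM, no neighbours in the order differed beyond the test. The order was B16F10, CT26, RENCA, MB49, TC1, MBT2, EMT6, CM3, 4T1, LL2 and MC38. TC1, the line made with an activated HRAS, stood in the middle for mouse Hras at 40.2 ± 2.74 FPKM.

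Nras had its highest level in EMT6, at 78.3 ± 6.40 FPKM, and its lowest in B16F10, at 18.1 ± 3.83 FPKM. EMT6 differed from 4T1, the next in order at 58.3 ± 3.36 FPKM (adjusted p = 0.0138), and B16F10 differed from RENCA, the next above it at 28.1 ± 3.88 FPKM (adjusted p = 0.000134), both in limma. Between them stood MBT2, CM3, LL2, MC38, CT26, MB49 and TC1, no neighbours of which differed. Hras and Nras thus placed B16F10 at opposite ends, and across the 11 model means their log2 levels had a Pearson r of -0.74. That r includes B16F10, which is extreme for both genes. Deviations of the 143 libraries from their own group means had an r of -0.002 and a Spearman's rho of -0.21 for this pair. Both EMT6 and B16F10 became outlying for Nras in baseline tumours, at 1.09 and -1.07 on the log2 scale, as did B16F10 for Hras at 1.08.

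Braf (ENSMUSG00000002413, chr6:39603237-39725463, minus strand) encodes a RAF kinase that binds active RAS. It was the lowest of the 3 upstream genes per length, at 1.72 ± 0.850 FPKM in RENCA up to 6.81 ± 1.13 FPKM in EMT6. No neighbours in its order differed by the test, and the order was EMT6, MC38, LL2, MBT2, TC1, CM3, B16F10, CT26, MB49, 4T1 and RENCA. Replicates spread widely in B16F10, where isotype libraries ran between 2.39 and 8.91 FPKM. Of the 50-base stretches of Braf transcripts, 0.691% also occur in Ndufb2, and 0.733% of those of Nras occur in other genes.

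Myc (ENSMUSG00000022346, chr15:61985391-61990374, plus strand) encodes a transcription factor of growth and ribosome synthesis genes. In LL2 it had 271, 251, 249, 322 and 234 FPKM in muDX400 tumours, 251, 255, 264, 279 and 296 FPKM in isotype tumours, and 238, 243 and 251 FPKM in baseline tumours. The 50 isotype libraries of the other models ran between 18.2 and 105 FPKM, so that every LL2 library of any arm lay above them. The isotype difference was 2.13 ± 0.13 on the log2 scale (SE, adjusted p of limma = 3.51e-20), a ratio of means of 4.15.

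At the other end, Myc in B16F10 had 24.1, 32.0, 28.1, 23.2 and 27.1 FPKM in muDX400 tumours, 25.7, 31.7, 18.2, 34.3 and 22.5 FPKM in isotype tumours, and 22.6, 24.5 and 23.9 FPKM in baseline tumours. The isotype difference was -1.54 ± 0.13 (adjusted p of limma = 1.59e-15). It fell short of the rule in the muDX400 arm, at -1.42, where the lowest library of another model stood at 29.5 FPKM and the groups overlapped, and under median-ratio scaling, where it was -1.20 and groups overlapped. From the second to the ninth place (MB49, RENCA, 4T1, CM3, EMT6, CT26, MBT2 and MC38, with means of 91.5 to 59.0 FPKM) no neighbours differed. TC1, at 42.0 ± 4.47 FPKM, was lower than MC38 (adjusted p of limma = 0.0200) and higher than B16F10 (adjusted p = 0.000400).

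Mycn (ENSMUSG00000037169, chr12:12936093-12941914, minus strand), a MYC paralogue of neural tumours, was under 1 FPKM in 137 of 143 libraries and listed at 0 in 8. MC38 was the exception, with 0.651, 0.460, 0.512, 0.505 and 0.460 FPKM in muDX400 tumours, 1.19, 1.73, 0.936, 0.676 and 1.51 FPKM in isotype tumours, and 1.31, 1.19 and 2.86 FPKM in baseline tumours. The highest baseline library of any other model was at 0.334 FPKM. Mycn passed the filter in the baseline arm through the 3 MC38 libraries alone, so no test of it there is given. LL2 was next, with an isotype mean of 0.391 ± 0.255 FPKM, and the 9 other models had means of at most 0.204 FPKM.

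Ccnd1 (ENSMUSG00000070348, chr7:144929931-144939925, minus strand) encodes cyclin D1, which activates CDK4 and CDK6 in early cell cycle. In MC38 it had 546, 439, 435, 478 and 644 FPKM in muDX400 tumours, 616, 586, 564, 556 and 666 FPKM in isotype tumours, and 623, 621 and 604 FPKM in baseline tumours. All 5 isotype libraries lay above the 50 of the other models, the highest of which was 389 FPKM, by 2.28 ± 0.13 on the log2 scale (adjusted p of limma = 7.90e-21). The ratio of means was 3.78.

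In CM3 the Ccnd1 level was 22.2, 17.1, 21.6, 20.4 and 19.2 FPKM in muDX400 tumours, 33.1, 16.6, 10.5, 21.7 and 36.2 FPKM in isotype tumours, and 48.9, 42.5 and 38.1 FPKM in baseline tumours. Every CM3 library lay below the lowest isotype library of another model, 55.9 FPKM, and the isotype difference was -2.92 ± 0.13 (adjusted p of limma = 1.84e-25). The lowest isotype values, 16.6 and 10.5 FPKM, were those of replicates 2 and 3, whose FPKM totals were high. Deviations of Ccnd1 within groups had an r of -0.54 and a rho of -0.28 with the FPKM total. The difference was -1.99 in baseline tumours and -2.97 in muDX400 tumours. The part of the totals in it was not tested. Neighbours in the order 4T1, CT26, MB49, EMT6, TC1, MBT2, RENCA, LL2 and B16F10 between them differed for CT26 over MB49 (adjusted p = 0.0239), MB49 over EMT6 (adjusted p = 0.000210) and LL2 over B16F10 (adjusted p = 0.000528). MC38 also differed from 4T1, second at 367 ± 27.6 FPKM (adjusted p = 0.000672), and B16F10 from CM3 (adjusted p = 4.86e-10). Of the 50-base stretches of Ccnd1 transcripts, 21.6% also occur in the overlapping gene LTO1 on the opposite strand, and the sources used here do not give whether counting used strand. LTO1 was 0.92 ± 0.12 above the other models in MC38 and 0.30 ± 0.12 above them in CM3, where Ccnd1 was below.

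Dusp6 (ENSMUSG00000019960, chr10:99263231-99267489, plus strand) encodes a phosphatase that removes phosphate from ERK and is itself raised by ERK signalling. It varied least of the 4 outputs, with isotype means of 46.3 ± 15.6 FPKM in B16F10 to 162 ± 83.1 FPKM in CM3, a ratio of 3.50, and no model was outlying in isotype tumours, while 4T1 and B16F10 were in muDX400 tumours, at 1.02 and -1.10. By mean log2 level the order was 4T1, CM3, LL2, MB49, TC1, CT26, RENCA, MBT2, MC38, EMT6 and B16F10. Only MBT2 over MC38 differed between neighbours (79.4 ± 7.18 against 55.2 ± 4.83 FPKM, adjusted p of limma = 0.0186). The 4T1 libraries were tight, at 160 ± 6.48 FPKM, and the CM3 isotype libraries ran between 66.1 and 288 FPKM.

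Spry4 (ENSMUSG00000024427, on chromosome 18, minus strand) encodes a Sprouty protein that restrains receptor tyrosine kinase signalling to RAS. In CT26 it had 44.1, 40.5, 38.6, 42.5 and 43.2 FPKM in muDX400 tumours, 53.7, 48.2, 55.6, 42.4 and 46.2 FPKM in isotype tumours, and 37.8, 32.5 and 22.5 FPKM in baseline tumours. The isotype libraries lay above all 50 others, whose highest was 34.3 FPKM, by 2.65 ± 0.14 (adjusted p of limma = 3.44e-22), a ratio of means of 4.97. In the baseline arm the difference was 1.99, but libraries overlapped with another model at 38.2 FPKM. LL2 followed CT26 at 30.0 ± 2.68 FPKM (adjusted p = 0.00178), with TC1 at 22.1 ± 1.34 FPKM and RENCA at 15.9 ± 5.68 FPKM, which stood above CM3 at 6.88 ± 1.89 FPKM (adjusted p = 2.53e-06). MC38 and 4T1 stood near CM3, and EMT6, MB49, B16F10 and MBT2 had means of 3.59 FPKM or less, with no difference past the test between neighbours among them. TC1 over RENCA (adjusted p of limma = 0.0136) and 4T1 over EMT6 (adjusted p = 0.00778) were the other neighbours that differed.

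Etv4 (ENSMUSG00000017724, chr11:101769742-101785371, minus strand) encodes an ETS family activator. It had the widest range of the tested members, with a ratio of 123 between the highest and lowest isotype means. In MBT2 it had 0.688, 0.398, 0.670, 0.473 and 0.582 FPKM in muDX400 tumours, 0.719, 0.80, 0.501, 0.594 and 0.505 FPKM in isotype tumours, and 0.476, 0.775 and 1.03 FPKM in baseline tumours. The lowest isotype library of any other model was at 2.40 FPKM, and the isotype difference was -4.39 ± 0.15 (adjusted p of limma = 1.29e-29). B16F10 was next lowest at 3.78 ± 0.809 FPKM and differed from MBT2 below it (adjusted p = 5.99e-09) and from CM3 above it (adjusted p = 5.77e-10). CM3 and EMT6, at 16.5 ± 7.94 and 15.4 ± 1.43 FPKM, did not differ by the test, and EMT6 was lower than LL2 (adjusted p = 9.95e-08). Neighbours among LL2, MB49, TC1, 4T1, CT26, RENCA and MC38, with means of 42.6 to 77.0 FPKM, did not differ by the test. The model means of Spry4 and Etv4 had an r of 0.59 over 11 models.

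The same rule was applied to libraries of the other arms. In the baseline arm genes entered with 1 FPKM or more in 3 or more libraries. With 3 libraries per model there, fewer libraries had to lie apart, so counts of the arms are not like for like. In muDX400 tumours 8 pairs of members were outlying, where 3.42% of pairs over all genes were. They were 5 of the 6 isotype pairs, all but Myc in B16F10, with Dusp6 in 4T1 at 1.02, Dusp6 in B16F10 at -1.10 and Nras in B16F10 at -1.23. These 3 differed in the same direction in isotype tumours, at 0.87, -1.14 and -1.24, where their libraries overlapped those of other models. In baseline tumours 11 pairs were outlying, where 4.62% of pairs over all genes were. They held 5 of the 6 isotype pairs, all but Spry4 in CT26. Those not yet given were Etv4 in MC38 at 1.86 above the others and Spry4 in MBT2 at -1.76. Mycn in MC38 is among the 11 only because the filter let it in through the MC38 libraries, and it supports no count.

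Other genes of the pathways were read from lists. Of the list of MAPK outputs, 17 of 18 names were in the table, and 9 of 187 pairs, or 4.81%, were outlying. They were pairs of 7 genes, among them the phosphatase genes Dusp4 and Dusp5 and the Sprouty relatives Spry1 and Spred1, whose products feed back on the cascade. B16F10 held 4 of them, with Fosl1, an AP-1 subunit, at 0.943 FPKM against 68.5 FPKM in the other models, Dusp5 and Elk3 also below, and Dusp4 above by 1.80. Dusp4 was 3.05 below the others in MBT2, where Etv4 was also lowest. Spry1 was 2.86 above in 4T1, Spred1 1.99 above in TC1, Dusp5 1.97 above in EMT6 and Epha4 1.32 above in MB49.

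Among 20 tested RAS genes and regulators 5 of 220 pairs were outlying, or 2.27%. Among them Rap1a, a RAS relative, was 1.32 above the other models in EMT6, and Gab1, an adaptor gene, was 1.89 below them in CT26. Of RAF, MEK and ERK kinases 2 of 110 pairs were outlying, and in LL2 the ERK-activated kinase gene Rps6ka1 was 1.89 below the others. Of 20 MYC targets 8 of 220 pairs, or 3.64%, were outlying. In LL2, where Myc was highest, Cad and Wdr43 were 1.17 and 1.12 above the others and no target was outlying below. In CM3 Odc1, Srm, Mybbp1a and Eif4a1 were 1.35 to 1.74 below, together with 4 of 8 proliferation genes, Aurkb, Ccnb1, Mcm2 and Mcm5. In B16F10, where Myc was lowest, no MYC target was outlying. Across 11 models the mean of the MYC target list had an r of 0.62 with Myc. That r includes LL2, which is extreme for Myc and had the highest median sum of the targets in isotype tumours, 3685 FPKM.

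Of 11 cyclin D partners and inhibitors 5 of 121 pairs were outlying. They were Cdkn2a, Cdkn2b, Cdkn1a and Cdkn2c in TC1, at 6.67, 4.20, 2.17 and 1.84 above the others, and Cdk4 below in MBT2. These encode cell cycle inhibitors and the kinase partner of cyclin D1. None of the pairs was in MC38, where Ccnd1 was highest. The MYC network list had 3 of 121 pairs, with Mxd3 below in CM3, Zbtb17 above in B16F10 and Mycl, the remaining MYC paralogue, above in TC1 at 4.39 FPKM against 0.857 FPKM.

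Genes next to each outlying member were read to see whether the difference extended along the chromosome. Of the 10 measured genes nearest to Myc, Pvt1, a long noncoding RNA gene and the first measured after it, was 3.14 ± 0.19 above the other models in LL2 and 1.87 ± 0.19 below them in B16F10. Libraries of Pvt1 overlapped those of other models in both lines, so that it was outlying in neither. Pvt1 was the only neighbour that moved by 1 or more with Myc in LL2, where 4.57% of all genes did. Nsmce2 lay wholly above the other models there, by 0.74. In B16F10 Pvt1, Trib1 and Asap1 were lower by 1 or more, 3 of 10 against 21.1% of all genes, and Gsdmc, second after Myc, was 4.71 above. Of 7 neighbours of Ccnd1, none moved by 1 with it in MC38, where 6.98% of all genes did, and Mrgprf alone did in CM3, at -1.82, where 11.8% of all genes did. Of 10 neighbours of Etv4 in MBT2, Mpp2 moved with it, at -1.02, where 5.25% of all genes did, while Tmem106a was outlying the other way at 1.81. None of 10 neighbours of Spry4 moved by 1 with it in CT26, where 5.08% of all genes did. DNA copy number was not measured.

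**Figure D2:**
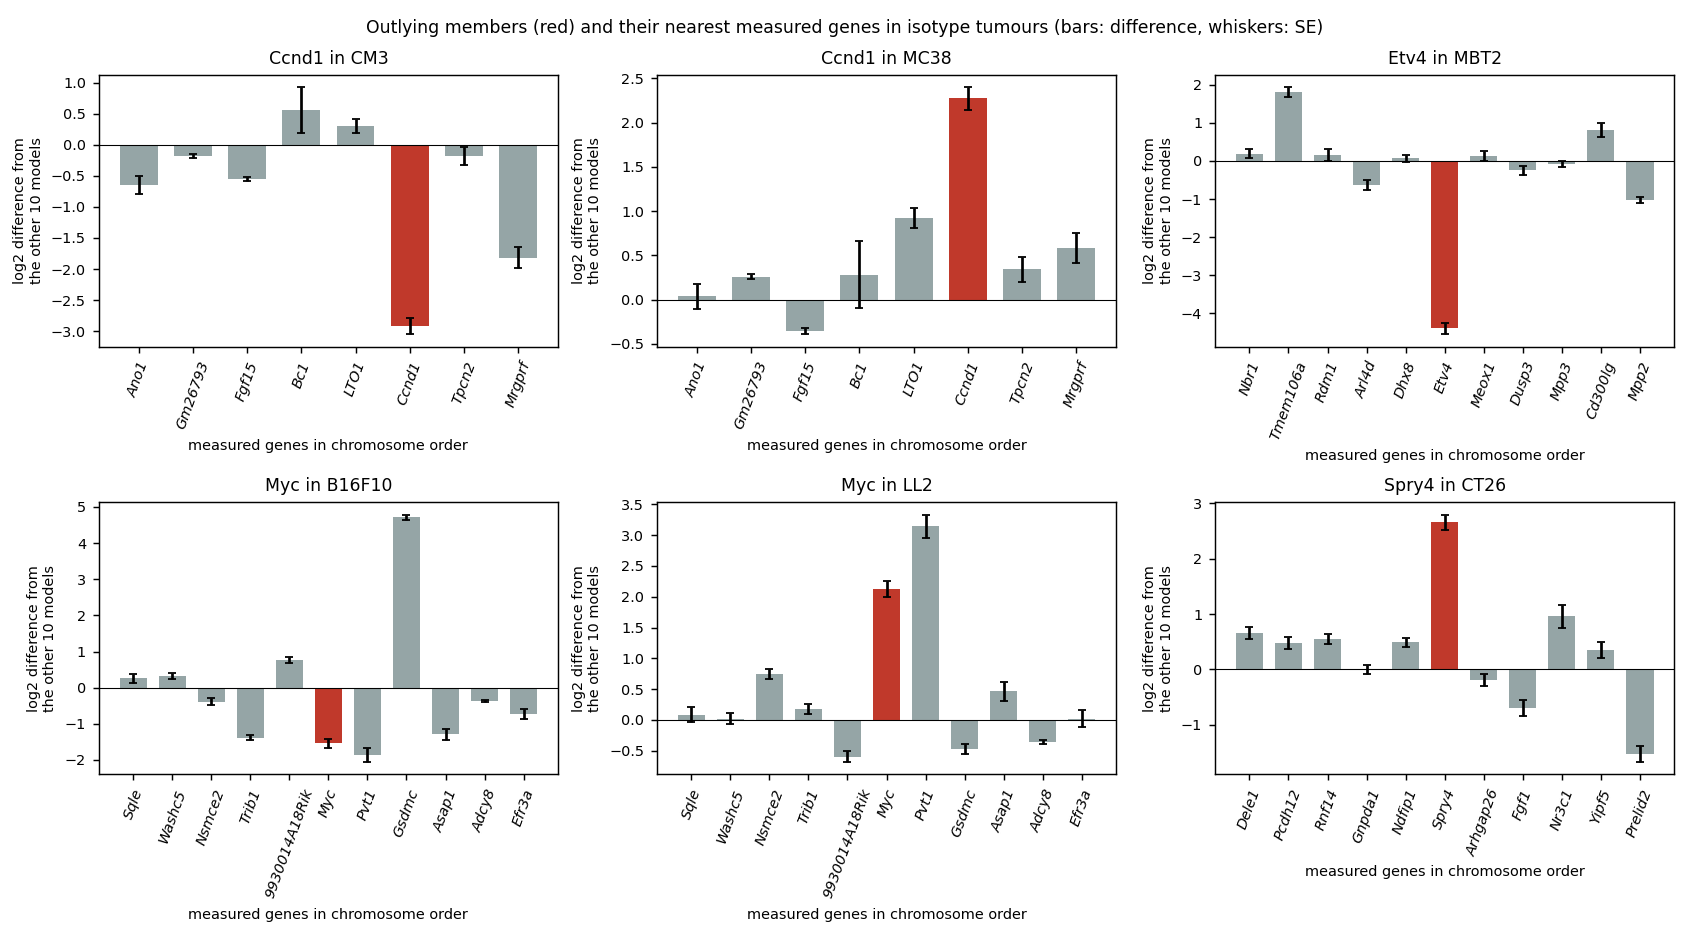
Difference of the named model from the mean of the other 10 in isotype tumours, on the log2(FPKM + 1) scale with SE, for each outlying member (red) and its nearest measured genes (grey) in chromosome order. Pvt1 beside Myc is the tallest bar in LL2 at 3.14 and the lowest in B16F10 at -1.87, while the neighbours of Ccnd1 in MC38 stay under 1.

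No trend of a member's level with response class passed the test. With the 11 models as replicates and classes scored 0, 1 and 2 for Resistant, Partial and High, none of 8 members had a slope with an adjusted p under 0.05 in isotype tumours, and none of 13589 genes did (0%, lowest adjusted p 0.664, with 640 genes at an unadjusted p under 0.05). In baseline tumours 0 of 14009 genes did (0%, 431 genes at an unadjusted p under 0.05). Outlying lines sat in every class, with Etv4 in MBT2 and Ccnd1 in MC38 and CM3 in High, Spry4 in CT26 in Partial, and Myc in LL2 and B16F10 in Resistant.

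The genes whose isotype means over 11 models were most like each member, among 13589 genes, were Clpb for Hras (r = 0.92), Rab8b for Nras (0.95), Bmt2 for Braf (0.96), Snapc4 for Myc (0.91), Tnni1 for Mycn (0.88), Hmgb3 for Ccnd1 (0.90), Tmem81 for Dusp6 (0.90), Ak5 for Spry4 (0.95) and Apbb1 for Etv4 (0.93). The highest of 13589 correlations over 11 points is high by selection, and these values describe the order of the models only. None of the next 2 genes for any member was another member.

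The main comparison asked what PD-1 blockade did to these genes. Etv4, Spry4 and Myc were lower in muDX400 than in isotype tumours of MC38, and no other pair of a member and a model passed the test. In CM3, another High model, Etv4 and Dusp6 had the largest differences of all, but did not pass with all libraries. Of 87 tested pairs 3 passed, or 3.45%, where 2.82% of all pairs over all genes did and 1.21% were lower. MC38 is the model with the broadest change, since 27.3% of its tested genes passed and 12.7% were lower, and the 3 of 8 tested members stand against that background.

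**Figure D3:**
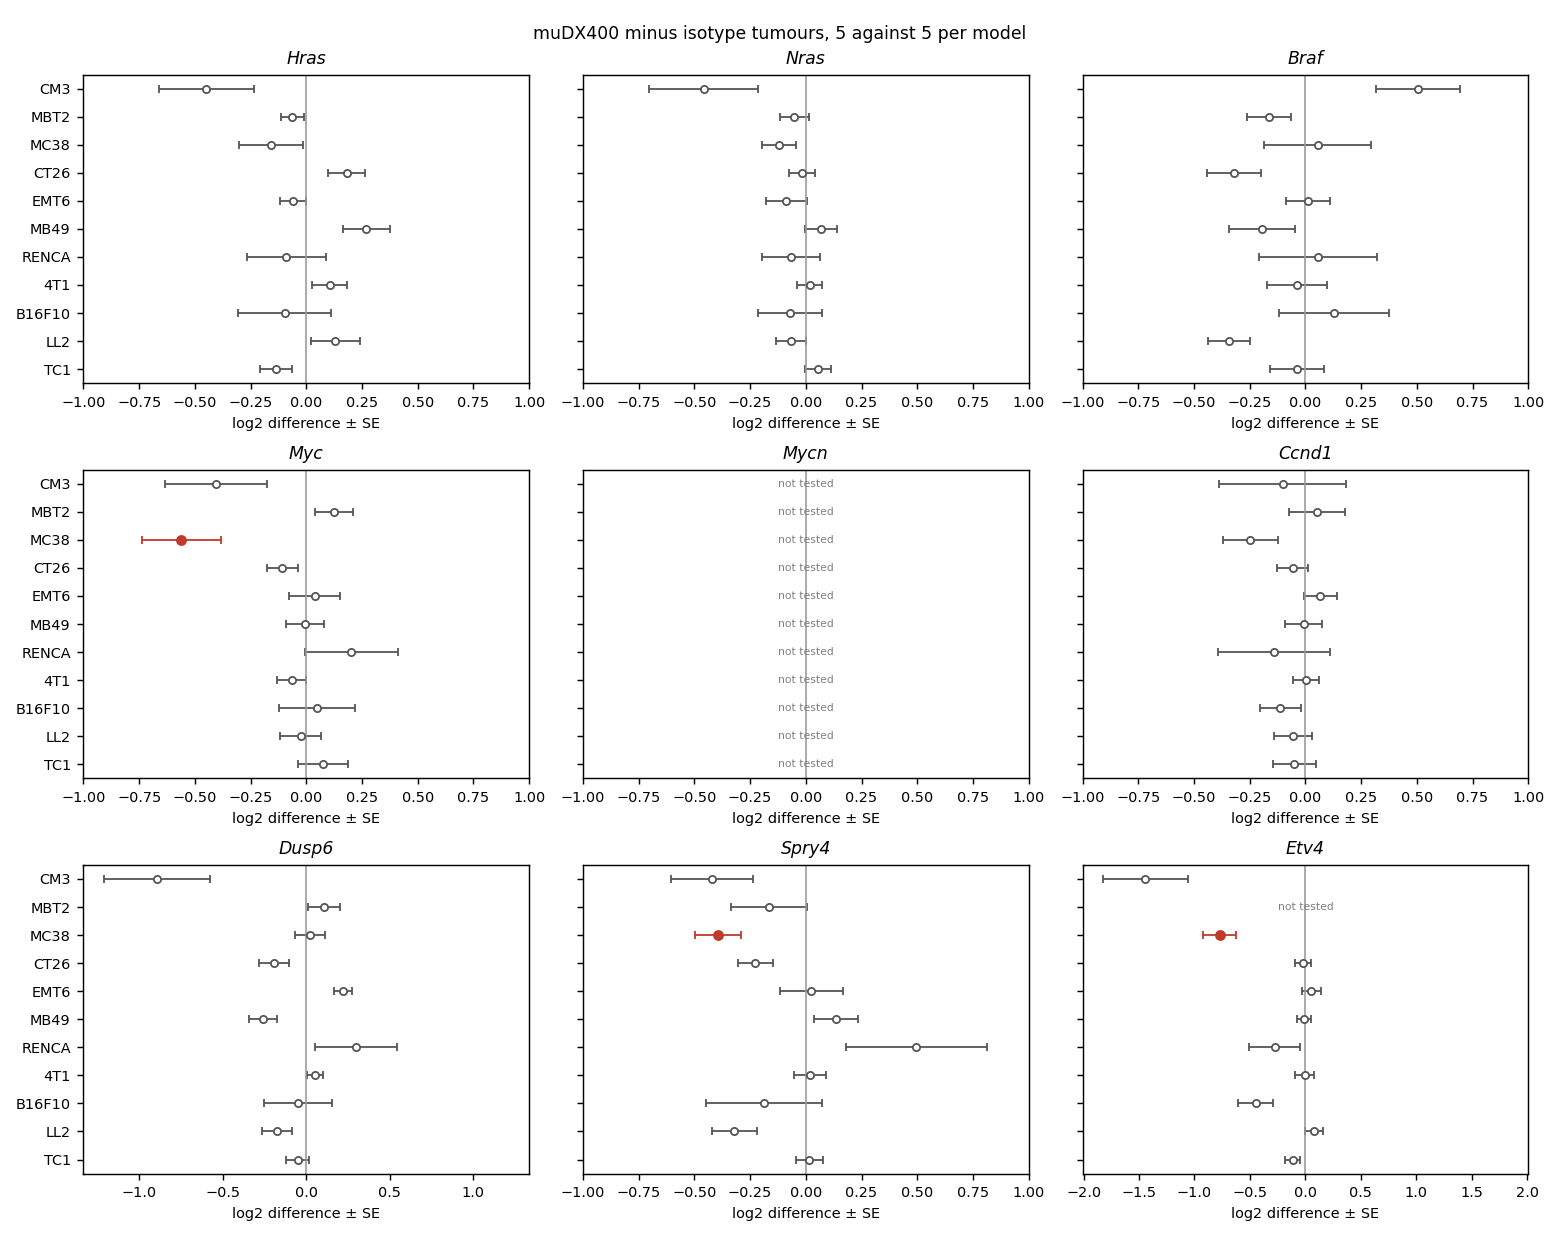
Difference of muDX400 from isotype tumours on the log2(FPKM + 1) scale with SE, for 9 genes and 11 models (5 tumours against 5), with pairs past an adjusted p of 0.05 in red. The red points are Myc, Spry4 and Etv4 in MC38, at -0.56, -0.39 and -0.77, and the wide intervals at the top belong to CM3.

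In MC38, Etv4 had 41.8, 37.8, 38.3, 46.7 and 58.1 FPKM in muDX400 tumours, against 80.6, 69.2, 99.7, 58.6 and 77.2 FPKM in isotype tumours. All treated tumours lay below all isotype tumours, by the narrow gap of 58.1 against 58.6 FPKM. The difference was -0.77 ± 0.15 on the log2 scale (SE, adjusted p of limma = 0.00495), and baseline tumours had 86.7, 87.6 and 85.8 FPKM. Groups of MC38 did not overlap for 16.9% of its genes.

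Spry4 in MC38 had 4.67, 4.16, 4.41, 4.14 and 5.11 FPKM in muDX400 tumours, against 6.53, 5.78, 7.04, 5.15 and 6.71 FPKM in isotype tumours. Here too the arms did not overlap, and the difference was -0.39 ± 0.10 (adjusted p of limma = 0.0174). Baseline tumours, at 4.08, 3.80 and 5.89 FPKM, lay below all isotype tumours in replicates 1 and 2 and among them in replicate 3.

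Myc in MC38 had 42.1, 29.5, 34.2, 39.1 and 53.7 FPKM in muDX400 tumours, against 63.3, 40.6, 70.3, 52.7 and 68.3 FPKM in isotype tumours. The arms overlapped, since muDX400 replicates 1 and 5 stood above isotype replicate 2. The difference was -0.56 ± 0.18 (adjusted p of limma = 0.0384), and it lost the call, with adjusted p of 0.0726 to 0.0999, when any of 6 of the 10 libraries was left out. Mycn in MC38 averaged 0.518 ± 0.0786 FPKM in muDX400 and 1.21 ± 0.425 FPKM in isotype tumours (SD, n = 5 each), without overlap. It was tested only with no filter on low values, at -0.52 ± 0.13 (adjusted p of limma = 0.0360).

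The remaining members of MC38 did not pass. Ccnd1 averaged 508 ± 88.02 FPKM in muDX400 and 598 ± 44.8 FPKM in isotype tumours, a difference of -0.25 ± 0.12 (adjusted p of limma = 0.146). It passed at -0.34 when muDX400 replicate 5 was left out (adjusted p = 0.0346). Dusp6, the feedback phosphatase gene, averaged 56.2 ± 5.56 FPKM in muDX400 and 55.2 ± 4.83 FPKM in isotype tumours, a difference of 0.02 ± 0.09. Hras, Nras and Braf differed by -0.16, -0.12 and 0.05.

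The other pathway genes of MC38 moved in both directions. Of 20 MYC targets 9 fell and none rose, with a median of -0.41 on the log2 scale against -0.06 over all genes tested in MC38. Npm1 and Ncl, nucleolar protein genes, fell by 0.69 and 0.53, and under median-ratio scaling or quantile normalisation 6 targets fell. Of 11 genes of the MYC network Mxd4 and Mxd1, which encode repressors that compete with MYC for its partner, rose by 0.71 and 0.61 and Mxd3 fell by 0.51. In all 3 rose and 1 fell there. Of 16 tested MAPK outputs 2 rose and 1 fell, with Dusp2 at 1.06, Dusp5 at 0.43 and Ier3 at -0.80, and the median of the list was -0.04. Under quantile normalisation 1 of the 16 rose and 3 fell. Of 19 RAS genes and regulators Rasgrp1 and Grb2 rose and Gab1 fell, of 10 RAF, MEK and ERK kinases Rps6ka1 and Araf rose, and of 11 cyclin D partners and inhibitors Cdkn2b and Cdk4 fell.

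Markers of other cells moved with these differences in MC38. All 7 T cell markers rose, with summed levels of 45.2 to 182 FPKM in muDX400 and 11.0 to 22.5 FPKM in isotype tumours. All 7 macrophage markers rose, to sums of 1539 to 3169 FPKM in muDX400 tumours against 807 to 1294 FPKM in isotype tumours, and all 5 endothelial markers rose. Of 8 proliferation genes 6 fell, with sums of 428 to 542 FPKM in muDX400 and 597 to 665 FPKM in isotype tumours. The muDX400 tumour with the lowest T cell sum, replicate 5, had the highest Etv4, Spry4 and Myc of its arm. The part of these cells in the differences was not tested.

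CM3 had the largest differences of Etv4 and Dusp6 of any model, and isotype replicate 4 was the lowest isotype tumour in both genes. Etv4 had 5.84, 3.25, 6.07, 3.83 and 4.94 FPKM in muDX400 tumours, against 13.7, 18.9, 25.0, 4.27 and 20.7 FPKM in isotype tumours. Isotype replicate 4 alone lay among the treated tumours. The difference was -1.44 ± 0.38 (adjusted p of limma = 0.179), and baseline tumours had 26.9, 16.8 and 16.6 FPKM. Of all genes tested in CM3 0% passed.

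Dusp6 in CM3 had 76.8, 71.4, 88.8, 85.0 and 67.5 FPKM in muDX400 tumours, against 128, 191, 288, 66.1 and 138 FPKM in isotype tumours. The pattern was that of Etv4, with isotype replicate 4 the lowest of all 10, and the difference was -0.90 ± 0.32 (adjusted p of limma = 0.179). Baseline tumours had 178, 133 and 117 FPKM.

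Spry4 and Myc of CM3 had isotype replicate 4 as their lowest isotype library as well. Spry4 had 3.97 FPKM there and 6.34 to 8.86 FPKM in the other isotype tumours, against 3.99 to 5.42 FPKM in muDX400 tumours. Myc had 39.6 FPKM there and 82.1 to 87.3 FPKM in the other isotype tumours, against 40.7 to 64.9 FPKM in muDX400 tumours. The differences with all libraries were -0.42 ± 0.19 and -0.41 ± 0.23. Braf was the only member of CM3 without overlap, with 6.29, 6.53, 6.01, 6.71 and 7.0 FPKM in muDX400 tumours against 4.86, 2.41, 3.61, 5.75 and 5.61 FPKM in isotype tumours. Its difference was 0.51 ± 0.19 (adjusted p of limma = 0.179), and groups did not overlap for 3.53% of all genes in CM3.

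Without isotype replicate 4, 5 members passed in CM3, where 30.8% of all genes then did. They were Etv4 at -1.83 (adjusted p of limma = 0.00112), Dusp6 at -1.18 (0.00556), Spry4 at -0.58 (0.0121), Myc at -0.62 (0.0123) and Braf at 0.59 (0.0372). Replicate 4 was singled out after seeing that its levels of these genes lay near the treated tumours. Leaving it out therefore widens these differences by construction and is no separate support for them. The libraries with high FPKM totals, isotype replicates 2 and 3, also mattered, as chosen after seeing the data. Without those 2 no member passed and 0% of genes did, with Etv4 at -1.07 and Dusp6 at -0.44. Without replicates 2, 3 and 4, which leaves 2 isotype libraries assumed to vary like the treated ones, 6 members passed among 38.4% of genes, with Etv4 at -1.66, Dusp6 at -0.77, Spry4 at -0.73, Myc at -0.64, Ccnd1 at -0.76 and Braf at 0.27. The sign of the differences of Etv4, Dusp6, Spry4, Myc and Braf was the same in all 4 of these fits. Braf was at 0.23 without replicates 2 and 3 (adjusted p of limma = 0.413). All 4 fits share the muDX400 libraries and isotype replicates 1 and 5, so the shared sign is no separate support.

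Cell markers separated the same CM3 library. Isotype replicate 4 had a T cell marker sum of 62.9 FPKM, within the 57.5 to 67.0 FPKM of muDX400 tumours and above the 13.5 to 24.2 FPKM of the other isotype tumours. Its macrophage markers summed to 1722 FPKM, against 957 to 1363 FPKM in muDX400 and 497 to 697 FPKM in the other isotype tumours. Its proliferation genes summed to 94.6 FPKM, within the 72.3 to 131 FPKM of muDX400 tumours and under the 196 to 286 FPKM of the other isotype tumours. What sets this library apart was not tested, and its label was kept.

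**Figure D4:**
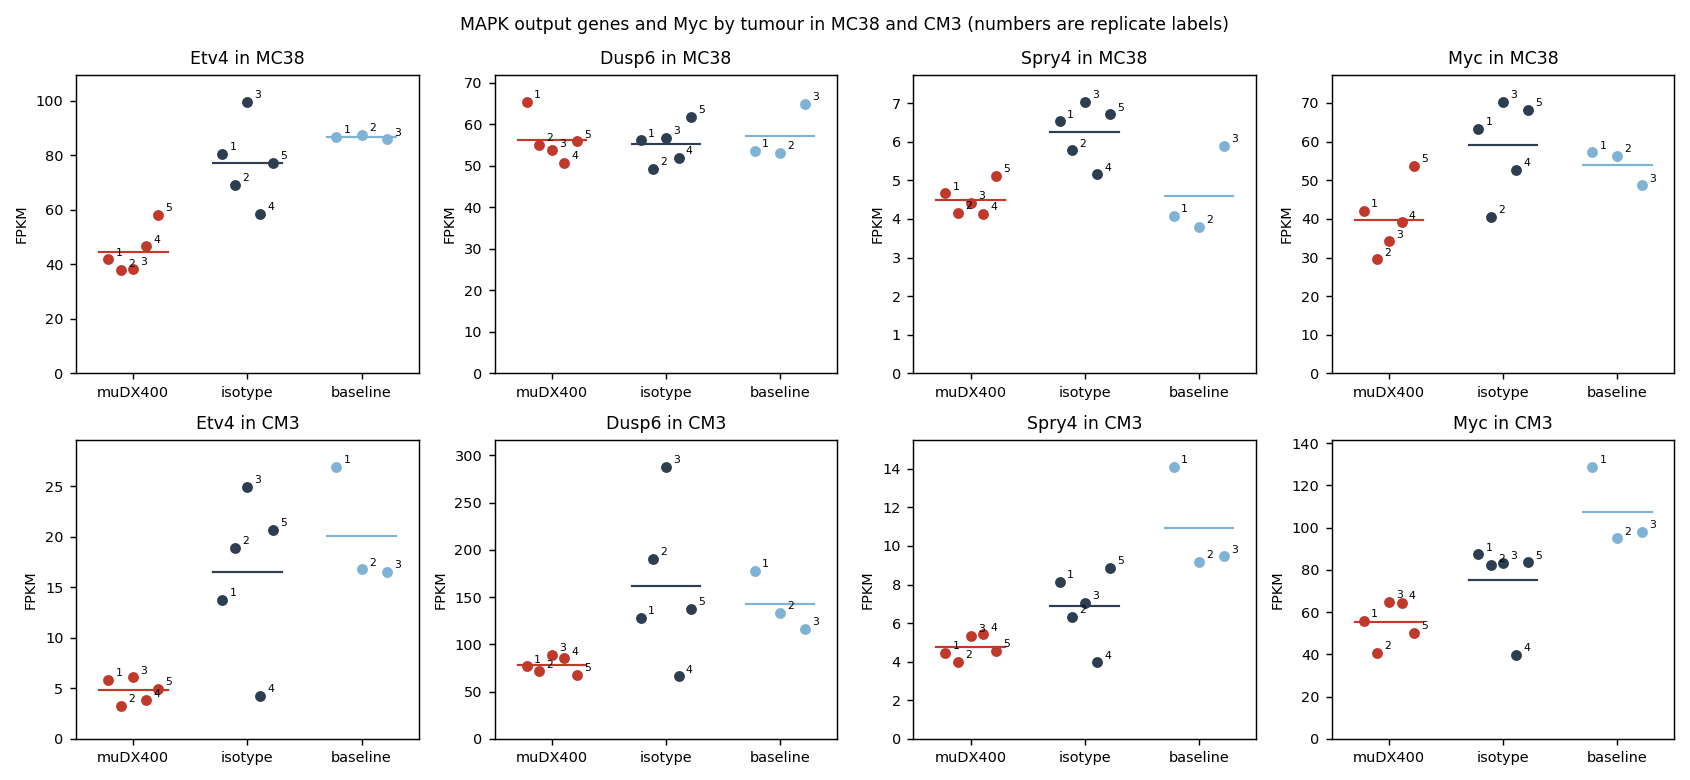
FPKM of Etv4, Dusp6, Spry4 and Myc in each tumour of MC38 (top) and CM3 (bottom) by arm, with replicate labels beside the points and a line at each mean. Etv4 and Spry4 of MC38 are lower in all 5 muDX400 tumours than in any isotype tumour, and isotype replicate 4 of CM3 lies at or near the muDX400 tumours in all 4 genes.

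Outside these 2 models no difference passed the test, though the largest exceeded in size the called difference of Spry4 in MC38, -0.39. In the other 9 the largest were 0.50 ± 0.32 for Spry4 in RENCA, with 23.2 ± 8.14 FPKM in muDX400 and 15.9 ± 5.68 FPKM in isotype tumours, and -0.45 ± 0.16 for Etv4 in B16F10, with 2.48 ± 0.503 and 3.78 ± 0.809 FPKM. Neither passed (adjusted p of limma = 0.539 and 0.827). Apart from MC38 and CM3, groups did not overlap for Dusp6 in EMT6, higher by 0.22 ± 0.05, and for Braf and Spry4 in LL2, lower by 0.34 ± 0.10 and 0.32 ± 0.10, none past the test (adjusted p = 0.907, 0.266 and 0.266). Groups did not overlap for 0.835% of all genes in EMT6 and 2.54% in LL2. Among 99 pairs, Mycn and MBT2 Etv4 included, 7 did not overlap, and over all genes 4.17% of tested pairs did not.

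Averaged over the 11 models, Etv4 was lower after muDX400 by 0.28 ± 0.05 (adjusted p of limma = 4.19e-05), with 9 of 11 models negative. Of these, 4T1, MB49 and CT26 were near 0, at -0.008, -0.02 and -0.02. MBT2, with Etv4 under 1 FPKM, was not tested by itself. Etv4 was the only one of 8 tested members to pass, where 23.1% of all genes did and 8.57% were lower. The effect differed between models for Etv4 (F = 6.99, adjusted p of limma = 5.15e-06) and Dusp6 (F = 3.77, adjusted p = 0.00285), where it did for 32.4% of all genes. Without CM3 and MC38, an alternative chosen after seeing the data, the mean for Etv4 was -0.09 (adjusted p = 0.146) and no member differed between models. With response class the effect on Etv4 had a slope of -0.30 ± 0.14 per class step (adjusted p = 0.204), where 0.902% of all genes passed and no member did.

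In the same average, 7 of 20 MYC targets and 8 of 8 proliferation genes fell and none rose. Markers of other cells moved with them, since 7 of 7 T cell, 7 of 7 macrophage, 5 of 5 endothelial, 4 of 4 neutrophil, 4 of 4 adipocyte and 5 of 7 fibroblast markers rose, with a median of 0.67 for T cells. Their part in these differences was not tested. Mxd1 rose by 0.36 and Mxd3 fell by 0.23 in the MYC network, and of 17 MAPK outputs Dusp2 and Dusp5 rose by 0.34 and 0.19 and Spry1 fell by 0.20. RENCA, where 2.57% of all genes passed, was the one model besides MC38 with calls among these pathway lists. There Ier3, Dusp5 and Mxd1 rose by 1.02, 0.98 and 1.06, and Ier3 had thus fallen in MC38 and risen in RENCA. The difference between these 2 models was not tested by itself.

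The last comparison set isotype tumours against baseline tumours. Of 88 tested pairs 7 passed, or 7.95%, where 13.9% of all pairs over all genes did. Of the members' pairs 3 were higher and 4 lower, against 4.30% higher and 9.58% lower over all genes. Hras was lower and Braf higher in isotype tumours of both LL2 and MBT2, Ccnd1 and Spry4 were lower in LL2, and Spry4 was higher in CT26. In these 3 models the arms stand in different blocks of sample numbers, so time and block cannot be told apart. In B16F10 and RENCA, the 2 models whose arms share a block, no member passed, where 5.72% of genes did.

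Hras in LL2 had 32.4, 34.5, 30.6, 30.5 and 28.4 FPKM in isotype tumours, against 45.3, 44.4 and 43.9 FPKM in baseline tumours. The groups did not overlap, and the difference was -0.50 ± 0.07 (adjusted p of limma = 0.00104). In MBT2 it had 36.5, 36.9, 38.9, 39.7 and 38.3 FPKM in isotype tumours, against 50.2, 44.0 and 50.6 FPKM in baseline tumours. This difference, again without overlap, was -0.33 ± 0.06 (adjusted p = 0.00804).

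Braf moved the other way in both lines. In LL2 it had 5.94, 5.29, 5.55, 5.78 and 4.85 FPKM in isotype tumours, against 3.99, 3.89 and 3.76 FPKM in baseline tumours, a difference of 0.41 ± 0.08 (adjusted p of limma = 0.00806). In MBT2 it had 4.82, 4.76, 4.58, 4.73 and 5.04 FPKM in isotype tumours, against 3.16, 3.14 and 2.14 FPKM in baseline tumours. The difference there was 0.61 ± 0.11 (adjusted p = 0.00622), and neither line had overlap. The FPKM totals of the libraries moved with both genes, also without overlap. They ran between 493308 and 514344 in LL2 isotype and between 552017 and 557882 in LL2 baseline tumours, and between 480971 and 493179 in MBT2 isotype and between 515819 and 539531 in MBT2 baseline tumours. The part of the totals in the differences of Hras and Braf was not tested.

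Ccnd1 in LL2 averaged 99.1 ± 12.8 FPKM in isotype and 128 ± 4.09 FPKM in baseline tumours (SD, n = 5 and 3), a difference of -0.37 ± 0.10 (adjusted p of limma = 0.0215). Spry4 in LL2 averaged 30.0 ± 2.68 FPKM in isotype and 36.8 ± 2.22 FPKM in baseline tumours, with overlap and a difference of -0.29 ± 0.08 (adjusted p = 0.0280). Spry4 in CT26, whose tumours are listed above, was higher in all isotype than in all baseline tumours by 0.68 ± 0.16 (adjusted p = 0.0132). The mean in CT26 was 49.2 ± 5.44 FPKM in isotype and 30.9 ± 7.78 FPKM in baseline tumours. The background was 27.1% of genes in LL2, 22.4% in MBT2 and 23.4% in CT26.

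**Figure D5:**
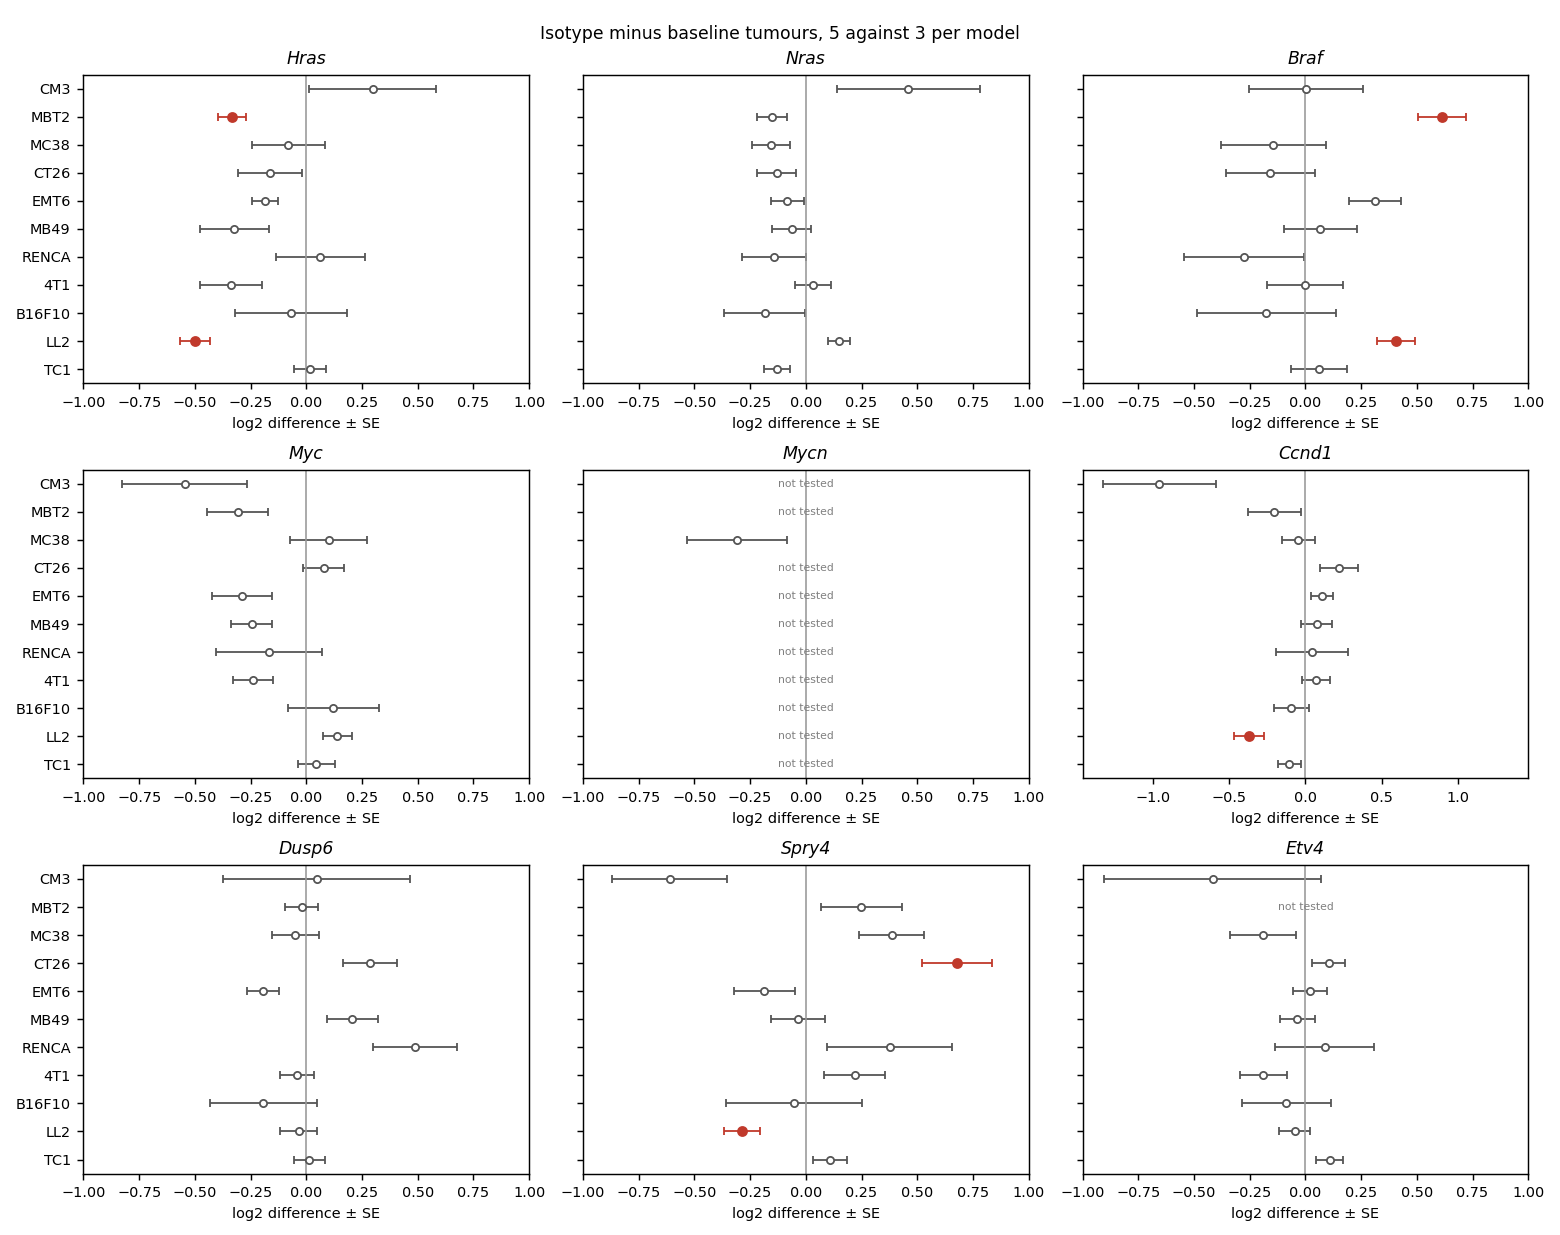
Difference of isotype from baseline tumours on the log2(FPKM + 1) scale with SE, for 9 genes and 11 models (5 tumours against 3), with pairs past an adjusted p of 0.05 in red. Hras is lower and Braf higher in MBT2 and LL2, Ccnd1 and Spry4 are lower in LL2, and Spry4 is higher in CT26.

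Other genes of the pathways moved in both directions in LL2. Of 20 RAS genes and regulators 6 were higher and 2 lower, with Nf1, which switches RAS off, higher by 0.42 and Rasgrp1 lower by 0.66. Of 16 MAPK outputs Spred2 was higher and Phlda1 lower. All 7 T cell markers were lower in LL2, with sums of 0.553 to 3.02 FPKM in isotype and 17.0 to 24.1 FPKM in baseline tumours. In CT26 5 of 16 MAPK outputs were higher and 1 lower, with a median of 0.36 against -0.10 over all genes tested in CT26. Among them Egr1, an immediate target of ERK, was higher by 1.30 and Phlda1 by 0.54, while Dusp2 was lower by 0.74. Markers of other cells moved in CT26 as well. Of 5 endothelial markers 4 were higher, with sums of 47.3 to 64.9 FPKM in isotype and 26.2 to 41.4 FPKM in baseline tumours, and of 7 fibroblast markers 1, Dcn, was higher. Of 7 T cell markers 3 were lower, as were Ms4a7 and Cd68 of 7 macrophage markers. Their part in the rise of the MAPK outputs was not tested.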

How the data were processed

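Total RNA of 143 tumours was sequenced as paired-end reads of 50 bases from libraries depleted of ribosomal RNA, per the labels' protocols. The table deposited by the authors holds FPKM per gene and library. The aligner, quantifier and genome build are not stated by those protocols, and 0 columns were left unused. Identifiers were matched to GENCODE M21 (GRCm38), and depth was estimated from 10507 genes with a single transcript. FPKM are not counts, so the test was limma's (version 3.58.1, R version 4.3.3) on log2(FPKM + 1), 2-sided and with its trend option. Benjamini-Hochberg adjustment covered all genes tested, at a threshold of 0.05. This scale understates the change of low genes. Genes entered with 1 FPKM or more in 5 or more libraries, or in 3 or more for isotype against baseline and for levels in the baseline arm. Scripts were tested on simulated data. The comparisons were muDX400 against isotype and isotype against baseline within each model, the mean over models and its variation in a fit of 110 libraries, each model against the other 10, and class slopes with the model as replicate. The members, lists and tests were chosen with earlier results of these data known. Named genes are the members, the list genes that passed with the largest differences, the 3 genes most like each member and the 5 nearest measured genes on each side. Deviations of same-numbered libraries were correlated between arms. For muDX400 and isotype, r was negative for some replicate in every model, though it reached 0.641 in MB49 replicate 2. For isotype and baseline, r was positive for every replicate in EMT6 (0.181 to 0.344), where no member passed. It was also positive in MBT2 (0.516, 0.443 and 0.007 in replicates 1, 2 and 3), where Hras and Braf passed. Every other model had a negative r for some replicate. Alternatives were another pseudocount, no filter, median-ratio and quantile scaling, shared spread, a replicate block and leaving out libraries or models.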

Additional observations from a re-analysis of the deposited data

Results flagged for a closer look

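Among 198 groups of 5 tumours, 9 held a library far from the other 4, and about 1 in 20 groups does so by chance. In muDX400 tumours these were Ccnd1 in CT26 replicate 1 (338 FPKM, the others 285 to 294), Hras in MC38 replicate 1 (35.1 FPKM, the others 25.3 to 26.5), Mycn in MC38 replicate 1 (0.651 FPKM, the others 0.460 to 0.512) and Nras in MB49 replicate 5 (41.3 FPKM, the others 35.6 to 36.4). In isotype tumours Myc stood apart in CM3 replicate 4 (39.6 FPKM, the others 82.1 to 87.3), MB49 replicate 4 (105 FPKM, the others 85.3 to 90.0) and TC1 replicate 5 (49.6 FPKM, the others 38.1 to 41.3). The remaining isotype libraries were Ccnd1 in TC1 replicate 4 (110 FPKM, the others 129 to 134) and Hras in RENCA replicate 1 (70.6 FPKM, the others 39.1 to 45.0).

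The effect of muDX400 differed between the 11 models for Etv4 (adjusted p of limma's F test 5.15e-06) and Dusp6 (adjusted p 0.00285). Etv4 ran between -1.44 in CM3 and 0.08 in LL2, and Dusp6 between -0.90 in CM3 and 0.30 in RENCA.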

How the results depend on the processing

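For muDX400 against isotype the count of 3 member calls became 10 when the spread was shared over 110 libraries. There 7 of the calls were in CM3, and Spry4 in MC38 was lost (adjusted p of limma 0.0773). Spry4 in RENCA was added, higher by 0.50 (adjusted p of limma 0.0354). The count was 2 to 8 when single libraries were left out, with 8 without CM3 isotype replicate 4, and 9 without CM3 isotype replicates 2, 3 and 4. With a replicate block it stayed 3. Of all genes tested in CM3, 30.8% passed without isotype replicate 4 and 38.4% without replicates 2, 3 and 4. For most other settings in this section the share of all genes is not given, so those counts cannot be set against a background. Myc in MC38 was also lost without a filter on low values (adjusted p 0.0850). Member calls of the mean over models, 1 in all, were 2 without a filter, under quantile normalisation and without RENCA (Spry4 added under quantile normalisation and without RENCA), and 0 without CM3 and MC38. Calls of the difference between models, 2 in all, were 5 under median-ratio scaling, 1 to 5 when a replicate number was left out, 1 without CM3 and 0 without CM3 and MC38. For isotype against baseline the 7 calls were 13 under median-ratio scaling, 6 with a replicate block over replicates 1 to 3 and 0 in B16F10 and RENCA alone. Median-ratio scaling added Myc, Ccnd1, Dusp6 and Etv4 in CT26 and Spry4 and Etv4 in TC1, all higher in isotype tumours. Spry4 in CT26 lost its call under the block (0.77, adjusted p 0.0769), and a spread shared over 88 libraries lost the other 6 (adjusted p 0.0627 to 0.406) and added Nras, Myc, Ccnd1 and Spry4 in CM3 and Dusp6 in RENCA. Quantile normalisation lost Ccnd1 in LL2 (-0.25, adjusted p 0.0730) and added Nras and Myc in LL2 and Spry4 in TC1. Without 4T1 baseline replicate 3, Hras, Myc and Spry4 in 4T1 were added. Leaving out any 1 baseline library lost Ccnd1 in LL2 (adjusted p 0.0665 to 0.0871) and Spry4 in LL2 (adjusted p 0.0527 to 0.122), and Spry4 in LL2 was also lost without isotype replicate 1 or 2. Outlying levels numbered 8 in muDX400 and 11 in baseline tumours, against 6 in isotype tumours, where median-ratio scaling gave 5. The 11 include Mycn in MC38, which entered through the MC38 libraries alone and was not tested in the other arms. Scaling moved the median of all genes by 0.11 to 0.14 downward for muDX400 in CM3 and by up to 0.20 upward for isotype against baseline in RENCA. In the latter comparison median-ratio scaling moved the median upward by 0.165 in CT26 and by 0.116 in TC1. No direction of a called member reversed in any alternative run. The cause of these changes was not tested. Depth limits Mycn, near 0 in most libraries, and Etv4 in MBT2.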

Other observations

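Deviations of each library from the mean of its own group, on the log2 scale, were compared between the members over 143 libraries in 33 groups, with 45 relations in all and 100000 permutations within groups. Hras and Braf moved against each other, with Pearson's r = -0.75 (permutation p = 1e-05, the smallest that the permutations can give, adjusted 7.5e-05) and Spearman's rho = -0.69 (permutation p = 1e-05, adjusted 9e-05). Without the 2 libraries farthest from the median in Hras, r was -0.75, and within the 4 blocks of sample numbers it was -0.90 to -0.58. Hras also followed the FPKM total of the library (r = 0.74, permutation p = 1e-05, adjusted 7.5e-05; rho = 0.76, permutation p = 1e-05, adjusted 9e-05), with an r of 0.72 without the 2 farthest libraries and of 0.62 to 0.88 within blocks. Braf moved against that total (r = -0.59 and rho = -0.67, permutation p = 1e-05 each, adjusted 7.5e-05 and 9e-05). The same pair, Hras and Braf, moved in opposite directions between isotype and baseline tumours of LL2 and MBT2. The part of the library total in the relation of Hras and Braf was not tested.

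Among the outputs, Dusp6 and Spry4 deviated together within groups, with r = 0.61 (permutation p = 1e-05, adjusted 7.5e-05) and rho = 0.46 (permutation p = 2e-05, adjusted 0.00015), and r was 0.64 without the 2 farthest libraries. Dusp6 and Spry4 each deviated with Myc, at r = 0.59 and 0.52 and rho = 0.50 and 0.42 (permutation p = 1e-05 each). Within blocks r ran between 0.24 and 0.94 for Dusp6 and Spry4, between 0.28 and 0.76 for Dusp6 and Myc, and between -0.15 and 0.82 for Spry4 and Myc, so that the last relation did not hold in every block.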
